A study of Mus musculus with 44 samples.

Results

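The genes described here are 10 mouse genes of neurogenesis: Dcx, Sox2, Sox4, Sox11, Neurod1, Neurod2, Neurod6, Tbr1, Bcl11b and Pax6. They were chosen by symbol, as the 10 of the 17158 RefSeq accessions in the gene tables that carry these names. The rule used no measured value, but the set was drawn up with earlier results of these data known. For each gene the RNA level, the ribosome-protected fragment (RPF) level, the translational efficiency (TE, RPFs relative to mRNA) and the poly(A)-tail length were compared among brain tissues and neuronal cultures of C57BL6J mice without a transgene or deletion. The tissues were the embryonic hippocampus, and the hippocampus and the cortex of 1 adult male each. The cultures were made from the cortex of newborn pups of undetermined sex, treated with ara-C, a poison of dividing cells, and kept for 14 days in vitro (DIV14) or 10 days in vitro (DIV10). At DIV14 a culture was left unstimulated, or received BDNF or glutamate and glycine (glu/gly) for 30 min. Others carried a lentivirus in which the neuronal synapsin promoter drove GFP alone, or GFP with miR-1 or with miR-155. At DIV10 a culture was left unstimulated, or received KCl for 10 or 30 min. In the visual cortex, 4 mice held in the dark for 1 week were compared with 4 mice then given light for 1 h.

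These genes act in sequence as a neuron is made. Pax6 and Sox2 are transcription factors of dividing progenitors of the developing forebrain, and Sox2 is also kept in glia. Sox4 and Sox11 belong to one subgroup of Sox factors and act as neurons begin to differentiate, and Dcx (doublecortin) encodes a microtubule-binding protein of migrating young neurons, in the adult a standard marker of newly born granule cells. Neurod1, Neurod2 and Neurod6 are basic helix-loop-helix (bHLH) factors of differentiating excitatory neurons, and Tbr1 and Bcl11b (Ctip2) are transcription factors of deep-layer cortical projection neurons, with Bcl11b also present in hippocampal neurons.

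Every tissue or culture gave 1 library per assay outside the visual cortex, so those comparisons had no replicate and carry no test. Their log2 ratios are given with exact 95% intervals that cover counting error only. Levels are given as CPM, the reads, RPFs or tags of a gene scaled to the total on listed genes. Depth on genes was 448022 to 7689624 reads over 12 RNA-seq libraries, 817114 to 23212489 over 12 RPF libraries, 389654 to 1057812 tags over 10 TAIL-seq libraries and 86841 to 4812273 over 10 PAL-seq v2 libraries. In bulk tissue, fewer cells of a type and less RNA per cell cannot be told apart. The summed level of 7 progenitor markers such as Mki67 and Nes was 4529 RNA-seq CPM in the embryonic hippocampus, 108 in the adult hippocampus, 72.0 in the adult cortex, 4093 in the unstimulated DIV10 culture and 2276 in the unstimulated DIV14 culture. The summed level of 6 mature neuron markers such as Snap25 and Camk2a was 292, 8487, 5600, 662 and 1128 in the same order. Only the sums are given here, and a few genes can carry them. In the DIV14 GFP culture, 3 of the 7 progenitor markers had no read, beside a sum of 1297 RNA-seq CPM. The progenitor sum thus does not measure dividing cells, and the cell types behind it in the cultures were not tested.

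The genes differ in structure as well as in role. On GRCm38.p6, Sox4 (NM_009238, chr13:28948919-28953699, minus strand) and Sox11 (NM_009234, chr12:27334268-27342718, minus strand) each consist of 1 exon. Sox2 (NM_011443, chr3:34649995-34652461, plus strand) also has 1 exon and lies within an overlapping noncoding gene, Sox2ot. Dcx (NM_001110222, chrX:143855842-143933124, minus strand) has 7 exons and a 3′ UTR of 7709 nt, against a median of 915 nt over the 17001 annotated mRNAs. The Sox11 3′ UTR was 6953 nt. Neurod1 (chr2:79452637-79456636), Neurod2 (chr11:98325417-98329645) and Neurod6 (chr6:55677818-55681263), all on the minus strand, keep their whole coding sequence in 1 of 2 exons. The other loci are Tbr1 (chr2:61804453-61814114, plus strand, 6 exons), Bcl11b (chr12:107910403-108003414, minus strand, 4 exons) and Pax6 (chr2:105676129-105698410, plus strand, 13 exons, overlapping Elp4). In GC content of the coding sequence, Sox11, Sox4, Neurod2, Sox2 and Bcl11b exceeded 98.6%, 98.2%, 98.2%, 97.9% and 96.5% of mRNAs, whereas Dcx and Neurod6 exceeded only 27.3% and 22.9%.

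The bases around the start codon are shown because RPFs were counted on the coding sequence and this context bears on its translation. The start codon is in capitals, with 6 bases before it and 1 after it (RefSeq, GRCm38.p6).
Dcx: caaaatATGg
Sox4: ggggccATGg
Sox11: cggaccATGg
Sox2: gcccgcATGt
Neurod6: agaaccATGt
Bcl11b: ggggcaATGt
Of the 10 genes, 9 (Sox2 is the exception) have a purine at the third base before the start codon, as do 86.1% of mRNAs. Dcx, Sox4 and Sox11 are the 3 with a G directly after it, a feature of 51.3% of mRNAs. Neurod6 holds 14 ATG triplets in its 5′ UTR, more than 99.3% of mRNAs.

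Sox4 and Sox11 are close relatives, and the longest run of bases that their coding sequences share is 48 nt, at positions 226 to 273 of Sox4 and 196 to 243 of Sox11. It is shown because reads within it could have come from either gene.
Sox4 and Sox11: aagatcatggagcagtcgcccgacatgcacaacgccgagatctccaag
Over the whole coding sequence, 1.78% of the 30-base windows of Sox4, 1.73% of those of Sox11 and 2.26% of those of Sox2 also occurred in another listed transcript, so such reads could have touched only a small part of each gene. For Dcx, Neurod6, Tbr1, Bcl11b and Pax6 no window did.

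The 250 bases before the starts of Sox4 and Sox11, which moved together below, are shown with the E-box CAGCTG in capitals (RefSeq starts, GRCm38.p6, minus strand, chr13:28953700-28953949 and chr12:27342719-27342968).
Sox4: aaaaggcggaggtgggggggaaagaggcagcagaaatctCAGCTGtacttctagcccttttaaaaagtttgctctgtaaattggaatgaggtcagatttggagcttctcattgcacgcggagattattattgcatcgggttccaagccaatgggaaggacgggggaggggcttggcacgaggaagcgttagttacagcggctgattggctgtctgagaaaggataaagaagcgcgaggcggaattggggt
Sox11: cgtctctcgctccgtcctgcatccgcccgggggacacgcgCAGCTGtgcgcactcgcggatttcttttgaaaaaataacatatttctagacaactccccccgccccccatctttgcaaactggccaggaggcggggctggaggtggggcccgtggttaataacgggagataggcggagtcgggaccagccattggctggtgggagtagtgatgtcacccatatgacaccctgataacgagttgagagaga
The motif, which reads the same on both strands, began 211 bases before the Sox4 start and 210 bases before the Sox11 start. It was present in 13% of 32851 promoters of the same length and in no promoter of the other 8 genes, so its presence in both is a description of these windows.

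The embryonic hippocampus was the sample in which most of these genes were highest. Dcx, Sox4 and Sox11 were nearly lost in the adult hippocampus, Neurod1, Pax6, Sox2 and Tbr1 fell less, Neurod6 and Neurod2 least, and Bcl11b was slightly higher in the adult. Dcx had 400.7 RNA-seq CPM in the embryonic and 5.49 in the adult hippocampus, a log2 ratio of 6.19 (95% interval 5.74 to 6.68). Sox11 had 988.9 and 17.2 CPM, a log2 ratio of 5.85 (5.59 to 6.11). Sox4 had 537.6 and 13.7 CPM, a log2 ratio of 5.29 (5.0 to 5.59). These 3 log2 ratios exceeded those of 99%, 98.9% and 98.6% of all genes compared, and none of their intervals came near the median of all genes, 0.24.

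The progenitor factors fell less than the young-neuron genes. Pax6 had 75.6 and 10.6 RNA-seq CPM in the embryonic and the adult hippocampus, a log2 ratio of 2.84 (2.49 to 3.20). Sox2 had 117.6 and 25.7 CPM, a log2 ratio of 2.19 (1.97 to 2.43). The bHLH genes were spread widely, with Neurod1 the most embryonic of them. Neurod1 had 354.9 and 21.2 CPM, a log2 ratio of 4.07 (3.83 to 4.31). Neurod6 had 503.0 and 204.7 CPM, a log2 ratio of 1.30 (1.21 to 1.38). Neurod2 had 189.1 and 140.4 CPM, a log2 ratio of 0.43 (0.31 to 0.55), close to the median gene. The deep-layer factors went opposite ways. Tbr1 had 144.2 and 38.6 CPM, a log2 ratio of 1.90 (1.71 to 2.10). Bcl11b had 171.8 and 214.1 CPM, a log2 ratio of -0.32 (-0.42 to -0.21), but with the RPM values of the authors, which divide by a larger total, it was 0.0026, so its direction depended on the scaling.

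In all, 8 of the 10 genes were at least 2-fold higher in the embryonic hippocampus, against 26.7% of 12463 genes, and 0 of 10 were at least 2-fold lower, against 21.7%. In the RPF libraries 7 of 10 were at least 2-fold higher, against 33.6% of 12634 genes, with log2 ratios of 6.67 for Dcx, 6.03 for Sox11, 5.51 for Sox4, 3.34 for Neurod1, 2.96 for Pax6, 1.78 for Sox2 and 1.77 for Tbr1. The RPF ratios of Neurod6, Neurod2 and Bcl11b were smaller, at 0.78, 0.30 and -0.79. The tags of the tail libraries, a separate library from each tissue, were sparse, with 4 of the 7 genes compared at least 2-fold higher in the embryo, against 15.3% of 2653 genes. Dcx had 32 tags in the embryonic and 2 in the adult library, Sox11 had 206 and 15, and Bcl11b had 5 and 35.

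**Figure D1:**
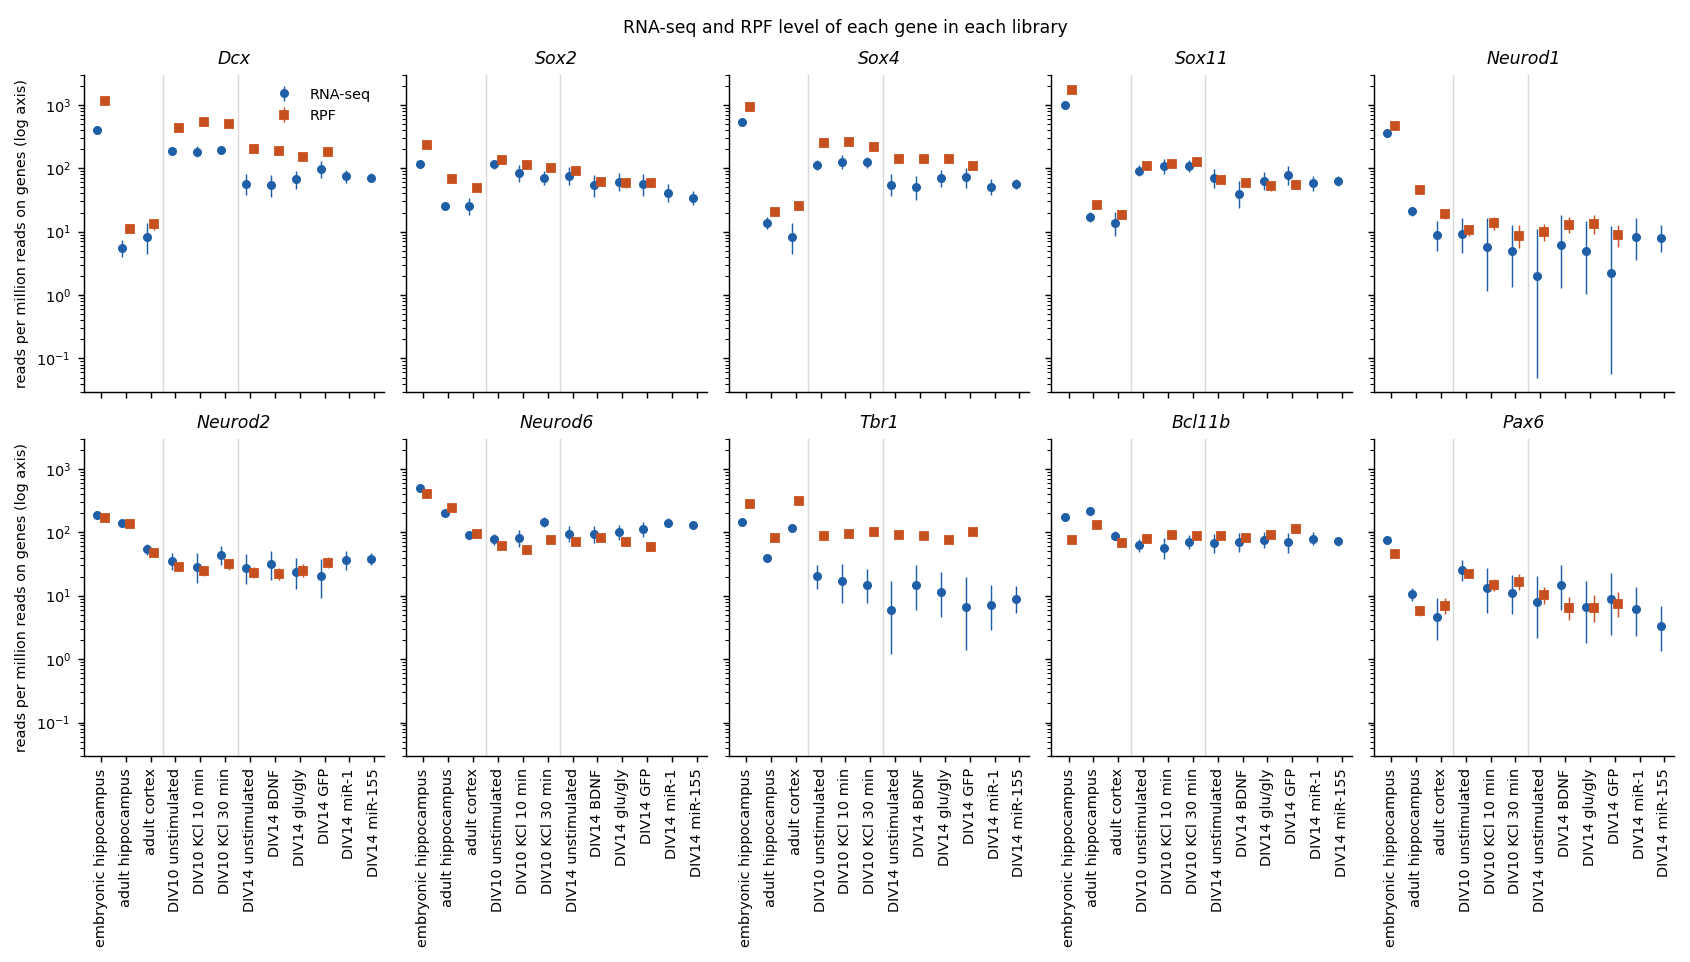
Level of each gene, 1 panel a gene, in CPM on a log axis for every tissue and culture on the x axis, by RNA-seq (circles) and RPFs (squares). Each point is 1 library and bars are 95% counting intervals; Dcx, Sox4 and Sox11 lie far higher in the embryonic hippocampus than in both adult tissues, with the cultures between them.

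Per kilobase of counted coding sequence, the order of RNA levels was rearranged between the hippocampi. In the embryo Sox11 led with 869 CPM per kilobase, followed by Neurod6 at 522, Sox4 at 422, Dcx at 381, Neurod1 at 347, Neurod2 at 172 and Sox2 at 129. Tbr1, Bcl11b and Pax6 closed the order at 72.3, 65.9 and 59.9, and neighbours among these 3 had overlapping counting intervals. In the adult hippocampus Neurod6 led at 212, followed by Neurod2 at 127 and Bcl11b at 82.2, and the other 7 lay between 5.23 for Dcx and 28.2 for Sox2. From Neurod1 down to Dcx in the adult, each pair of neighbours had overlapping intervals. Dcx thus moved from the 4th to the last place of the 10.

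**Figure D2:**
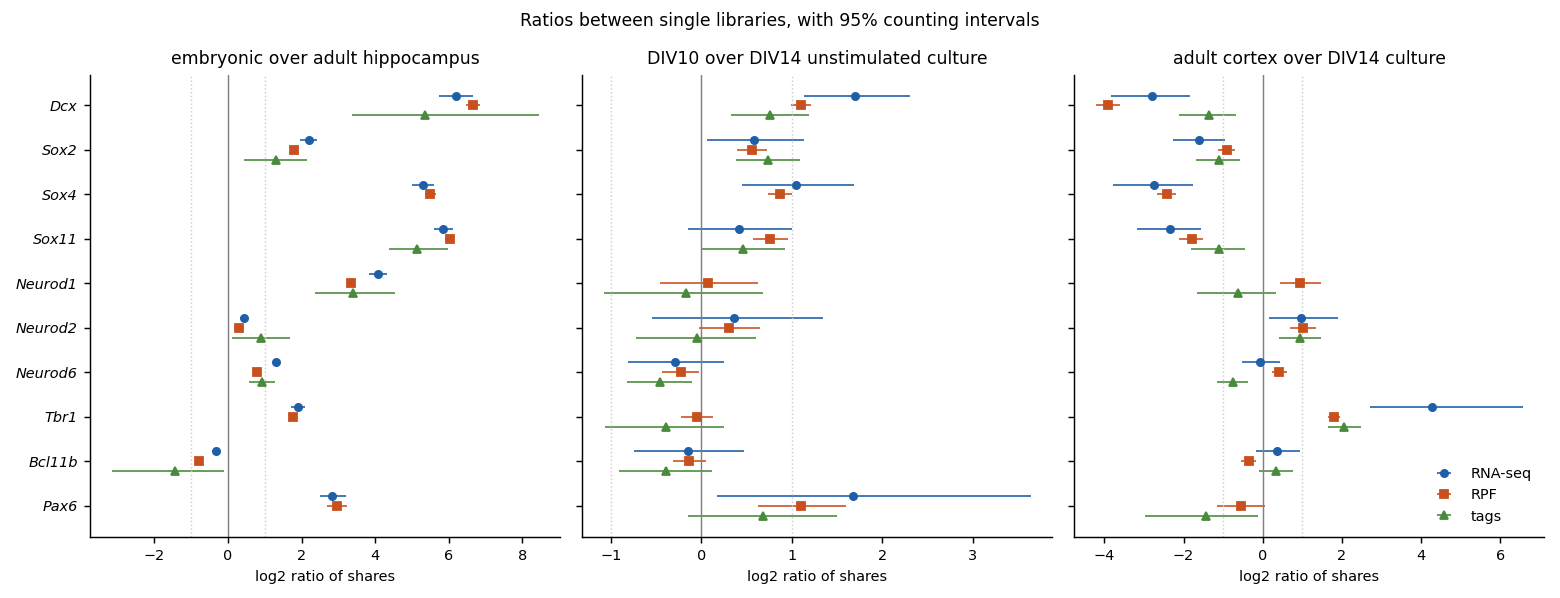
log2 ratio between 2 single libraries for each gene, by RNA-seq, RPFs and tags, with 95% counting intervals; the panels give embryonic over adult hippocampus, DIV10 over DIV14 unstimulated culture, and adult cortex over DIV14 culture, and dotted lines mark 2-fold. In the left panel Dcx, Sox4 and Sox11 stand farthest to the right and Bcl11b lies left of 0.

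Genes of related function were grouped in lists drawn up from textbook roles with earlier results of these data known. The counts below are from RNA-seq, where 26.7% of all genes were at least 2-fold higher in the embryo, 21.7% were lower and the median log2 ratio was 0.24. Of 9 other Sox genes, 6 were at least 2-fold higher in embryonic RNA and 1 lower, with a median log2 ratio of 1.59. Sox3, a progenitor factor, was at 5.88 and Sox12, the third member of the Sox4 and Sox11 subgroup, at 3.94, whereas Sox10, a factor of oligodendrocytes, was at -4.56 and Sox8 at -0.80. Of 16 other bHLH genes measured, 9 were higher and 2 lower, with a median of 1.38. Hes5, a Notch target of progenitors, was at 5.32 and the proneural gene Neurog2 at 4.96, and the lowest were the oligodendrocyte factors Olig1 at -3.60 and Olig2 at -3.54.

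Among 29 forebrain and cortical layer factors, 14 were higher and 5 lower, with a median log2 ratio of 0.92. Eomes, a factor of intermediate progenitors that precedes Tbr1, had 2279 reads in the embryo and 8 in the adult, a log2 ratio of 8.08 (7.09 to 9.29). Emx1 was at 2.91, Pou3f1 at -4.27 and Etv1 at -3.04. Of 21 doublecortin relatives and cytoskeletal genes of growing neurons, 12 were higher and 1 lower, with a median of 1.17, led by the growth-cone genes Dpysl3 at 5.04 and Dpysl5 at 4.67, with Ndel1 at -0.49 and the doublecortin-like kinase Dclk3 lowest at -5.62. Of 12 proliferation genes, 11 were higher and 0 lower, with a median of 5.61. Birc5 and Ccnb1, at 93 and 96 reads in the embryo and 0 in the adult, were at least 29.3-fold and 30.3-fold higher, taking 3 reads as the limit of a count of 0 in the adult library. With both at that bound the median of the list was 5.01, and Ccnd1 and Pcna had the lowest ratios at 0.48 and 1.79. Of the known Tbr1 targets, 3 were measured. Reln was at 3.92, Cask at 0.98 and Grin2b, which encodes an NMDA receptor subunit, at -2.32. By RPFs, where 33.6% of all genes were higher, the counts were 4 of 9 for the Sox genes, 8 of 16 for the bHLH genes, 13 of 29 for the forebrain factors with 6 lower, 9 of 21 for the cytoskeletal genes and 10 of 12 for the proliferation genes. By tags 4 of 13 forebrain factors were higher and 4 lower. Astrocyte and oligodendrocyte markers moved the other way, with summed RNA levels of 685 and 35.2 CPM in the embryonic and 3224 and 1684 in the adult hippocampus. Of the oligodendrocyte markers 1 of 6, of the astrocyte markers 1 of 7 in the embryo and of the progenitor markers 1 of 7 in the adult had no read. The part of cell composition in the ratios of the 10 genes was not tested.

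TE was taken as the log2 ratio of the authors' RPM for RPFs to that for RNA, minus the median of the sample, and was read for a gene whose RNA-seq value reached 10 RPM. Between the hippocampi only Neurod2, Neurod6, Tbr1 and Bcl11b passed this cutoff in both. Relative to the median gene, TE in the embryo minus TE in the adult was -0.58 for Neurod6 (-0.68 to -0.48), -0.53 for Bcl11b (-0.67 to -0.39), -0.19 for Neurod2 (-0.32 to -0.05) and -0.19 for Tbr1 (-0.39 to 0.01). None of these 4 reached a 2-fold difference in either direction, against 11.3% of 5431 genes higher and 10.8% lower in the embryo. The other 6 fell under the cutoff in the adult, and their differences lay between -0.79 for Neurod1 and 0.42 for Dcx. For Dcx the interval, -0.07 to 0.90, included 0, and the adult library held 40 Dcx reads.

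Within samples the genes held characteristic places in the TE distribution. Dcx mRNA was among the most efficiently translated, at 1.61 in the embryonic hippocampus, 1.60 in the unstimulated DIV10 culture and 2.30 in the unstimulated DIV14 culture on this log2 scale. In the 8 of 10 samples in which Dcx passed the cutoff, TE lay between 1.47 and 2.30 and exceeded that of 91.2% to 99.2% of genes. Sox4 lay at 0.91 to 2.00 in 8 samples, Sox2 at 0.35 to 1.08 in 7 and Sox11 at 0.03 to 0.92 in 7. In the embryonic hippocampus Sox4 was at 0.91, beside 1.08 for Sox2, 1.05 for Tbr1 and 0.92 for Sox11. Neurod6, with its many upstream ATG triplets, passed in all 10 samples and stayed near the median, from -0.37 to 0.40. Neurod2 was at -0.07 to 0.12 in the 3 samples in which it passed, Neurod1 at 0.48 and Pax6 at -0.63 in 1 each.

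Bcl11b had TE values that differed between tissues and cultures, and Tbr1 could be read only in the tissues. Bcl11b was at -1.06 (-1.16 to -0.95) in the embryonic hippocampus, -0.52 (-0.61 to -0.43) in the adult hippocampus and -0.10 (-0.36 to 0.17) in the adult cortex. In the 6 cultures in which it passed the cutoff it lay between 0.68 and 1.22, above all 3 tissues. Tbr1 was at 1.05, 1.25 and 1.72 in the same 3 tissues and under the cutoff in every culture. In the unstimulated DIV14 culture it had 3 RNA-seq reads beside 390 RPFs and 68 tags, which left its TE there at 4.44 with an interval of 2.88 to 6.72. RNA for the hippocampal libraries was selected by poly(A), while that of the adult cortex and of 6 cultures was depleted of ribosomal RNA, so between hippocampus and culture the preparation and the tissue cannot be told apart.

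Tail lengths were read where a gene had at least 50 tags in a library, which held for Neurod6 in all 20 tail libraries and for Sox4 and Pax6 in none. Dcx carried longer tails than most mRNAs and Neurod6 and Neurod1 shorter ones. In the unstimulated DIV14 culture the mean tail was 125.0 nt for Dcx, 120.8 nt for Bcl11b, 115.1 nt for Sox11, 114.4 nt for Neurod2, 112.2 nt for Tbr1, 111.0 nt for Sox2 and 102.3 nt for Neurod6, beside a median of 111.8 nt over 4364 genes. Over the 6 libraries in which it was measured, all cultures, Dcx exceeded 57.2% to 90.2% of genes. Neurod6 exceeded 3.37% to 61.2% of genes, with a median over its 20 libraries of 19.1%, and Sox2 exceeded 7.55% to 47.7% in 14. Neurod1, measured only in the 8 visual cortex libraries, exceeded 0.042% to 36.9%, with a median of 2.93%. Tbr1 exceeded 51.5% to 92.2% in 13 libraries and Neurod2 34.0% to 93.4% in 12. Sox11 and Bcl11b took no fixed place, exceeding 8.14% to 97.5% of genes in 12 libraries and 15.7% to 86.6% in 15.

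**Figure D3:**
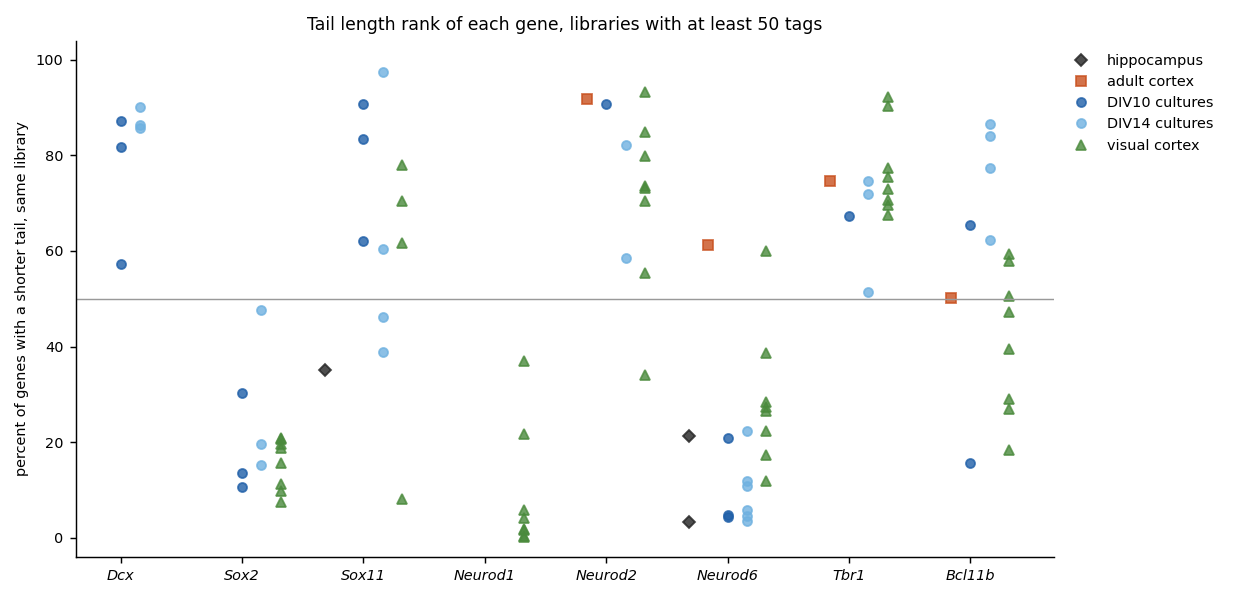
Share of genes with a shorter tail than the named gene in the same library, in percent, for libraries in which the gene had at least 50 tags. Each point is 1 library; Dcx and Tbr1 lie above 50% in every library shown, and Neurod1 and Sox2 below it.

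Between the hippocampi only Neurod6 had enough tags for its tail to be compared. Its tail was 39 nt in the embryo and 45 nt in the adult, 6 nt shorter in the embryo. The median difference over the 169 genes compared was 10 nt in the other direction, so relative to it Neurod6 differed by -16 nt. The hippocampal tail values come in steps of 0.5 nt, the form medians take, while the other libraries hold means, so lengths were not compared across these 2 kinds of library. With at least 20 tags, Neurod2 was at 77 nt in the embryo and 40 nt in the adult, and Sox2 at 43 and 42 nt.

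In culture, the younger unstimulated neurons had more Dcx. Dcx had 184.7 RNA-seq CPM at DIV10 and 57.0 at DIV14, from 220 and 29 reads, a log2 ratio of 1.70 (1.13 to 2.31). Sox4 had 113.3 and 55.0 CPM, a log2 ratio of 1.04, and Pax6 had 25.2 and 7.86, a log2 ratio of 1.68 (0.17 to 3.65). Of the 8 genes with at least 30 reads in both libraries together, these 3 were at least 2-fold higher at DIV10, against 6.82% of 8616 genes. Against the DIV14 GFP culture the calls differed. Dcx was then at 0.94 (0.47 to 1.45) and Sox4 at 0.67, both short of 2-fold, and 2 of 8 genes, Sox2 at 1.04 and Pax6 with an interval of -0.0086 to 3.46, were at least 2-fold higher, against 11.5% of 8480 genes. Against the unstimulated culture, Sox2 was at 0.59, Sox11 at 0.41 (-0.15 to 1.00), Neurod2 at 0.36, Bcl11b at -0.15 and Neurod6 at -0.29. Among RPFs, Dcx and Pax6 were both at 1.10, and 2 of 10 genes were at least 2-fold higher, against 9.01% of 12114 genes. With the authors' RPM 0 of 10 were, a scaling for which no share over all genes was taken. Among tags 0 of 9 were, against 5.63% of 7494 genes. Over all cultures, whatever the treatment, Dcx RNA was at 182.7 to 194.3 CPM in the 3 DIV10 libraries and 54.2 to 96.0 CPM in the 6 DIV14 libraries, and Dcx RPFs at 424.4 to 536.3 in 3 and 152.5 to 198 in 4. Neither range of Dcx overlapped between the ages. Sox4 RNA was at 113.3 to 126.2 CPM at DIV10 and at most 71.4 at DIV14, and Sox11 RNA at 91.5 to 108.3 and 39.6 to 78.1 CPM. With Tbr1, at 14.9 to 20.1 and 5.90 to 14.6 CPM, that made 4 of 10 genes whose every DIV10 RNA value was above every DIV14 value, against 10.2% of 11497 genes. By RPFs it was 5 of 10 (Dcx, Sox2, Sox4, Sox11 and Pax6), against 25.8% of 12857 genes. The 9 cultures are not replicates, because they differ in treatment. The summed progenitor markers moved with these genes, as given above, and their part was not tested. The cultures came from different experiments, so age and experiment cannot be told apart.

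Against the DIV14 culture, the adult cortex was far higher in Tbr1 and lower in Dcx, Sox4, Sox11 and Sox2. Tbr1 had 115.3 RNA-seq CPM in the cortex and 5.90 in the culture, from 197 and 3 reads, a log2 ratio of 4.29 (2.72 to 6.58), and smaller ratios of 1.80 by RPFs and 2.06 by tags. Dcx had 8.19 and 57.0 CPM, a log2 ratio of -2.80 (-3.83 to -1.83), and Sox4 was at -2.75, Sox11 at -2.35 and Sox2 at -1.61. Of 8 genes compared, 4 were at least 2-fold lower in the cortex, against 18.6% of 8870 genes, and 1 higher, against 17%. Among RPFs, Dcx, Sox4 and Sox11 were lower at -3.91, -2.43 and -1.80, which makes 3 of 10 against 11.2% of 11869 genes. Tbr1 at 1.80 and Neurod2 at 1.02 were higher, 2 of 10 against 11.4%.

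The adult cortex and the adult hippocampus differed chiefly in Tbr1 and the Neurod genes. Tbr1 had 312.0 RPF CPM in the cortex and 80.9 in the hippocampus, a log2 ratio of 1.95 (1.86 to 2.04). Neurod2 had 46.8 and 134.7, a log2 ratio of -1.52 (-1.69 to -1.36). Neurod6 was at -1.33 and Neurod1 at -1.26, and Bcl11b at -0.95 (-1.09 to -0.81) just missed a 2-fold difference. In all, 1 of 10 genes was at least 2-fold higher in the cortex, against 18.2% of 12161 genes, and 3 were lower, against 12.4%. Dcx, at 13.2 and 11.1 RPF CPM, was as low in both adult tissues within counting error, with a log2 ratio of 0.25 (-0.11 to 0.59).

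Stimulation moved the RPFs of the 10 genes little, and some tag and RNA-seq levels moved more with KCl for 30 min. The BDNF and glu/gly cultures share 1 control and the KCl cultures share another, so the values below are not independent. No RPF value out of 40 differed by 2-fold, but such differences were rare over all genes too. With BDNF 0.591% of all genes were at least 2-fold higher and 2.37% lower, and with glu/gly 0.507% and 2.24%. With KCl it was 0.996% and 5.75% at 10 min and 1.28% and 5.62% at 30 min. The counting interval excluded no difference for 1 of 10 genes with BDNF, against 24.6% of 10991 genes, and for 4 with glu/gly, against 28.1% of 10841. It did so for 5 with KCl for 10 min, against 47% of 12253, and for 5 with KCl for 30 min, against 41.5% of 12040. By tags it did so for 4 of 9 genes with KCl for 30 min, against 13.5% of 7174, and 1 of 9 with BDNF, against 11.1% of 7861. For glu/gly it was 0 of 9 by tags, against 8.79% of 7551, and for 10 min of KCl 0 of 8, against 9.56% of 6663. By RNA-seq it was 3 of 9 with KCl for 30 min, against 29.9% of 9031. With BDNF it was 0 of 6, against 7.49% of 6625, and with glu/gly 0 of 6, against 14.9% of 6938. With KCl for 10 min it was 0 of 9, against 9.2% of 8739. Sox2 was lower by RPFs in all 4 stimulated cultures. It had 91.8 RPF CPM in the DIV14 control, 61.7 with BDNF and 58.0 with glu/gly, log2 ratios of -0.57 (-0.81 to -0.33) and -0.66 (-0.93 to -0.40). It had 135.0 in the DIV10 control, 111.9 after 10 min of KCl and 102 after 30 min, log2 ratios of -0.27 (-0.41 to -0.13) and -0.40 (-0.59 to -0.22). The RNA ratios of Sox2 were -0.50, -0.32, -0.47 and -0.70 in the same order, and those of its tags -0.11, -0.33, -0.18 and -0.45. The counting intervals of its RNA ratios included no difference with BDNF, glu/gly and 10 min of KCl. Those of its tag ratios did so with BDNF, glu/gly and 10 min of KCl.

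Summed markers of other cell types moved beside Sox2. The summed RPF level of 7 progenitor markers was 2418 RPF CPM in the DIV14 control, 1527 with BDNF and 1663 with glu/gly, and 5740 in the DIV10 control, 5530 after 10 min and 4917 after 30 min of KCl. That of 7 astrocyte markers was 2574, 2128 and 2601 at DIV14 and 2614, 3273 and 3500 at DIV10. Their part in the Sox2 values was not tested. Dcx RPFs were higher after KCl, at 424.4 RPF CPM in the control, 536.3 at 10 min and 502.6 at 30 min, log2 ratios of 0.34 and 0.24. With glu/gly Dcx RPFs were lower, at -0.38. After 30 min of KCl, tag CPM went from 119.1 in the control to 203.4 for Sox11 and from 52.9 to 101.7 for Neurod2. RNA-seq CPM of Neurod6 went from 77.2 to 145.7, while Sox2 was lower by tags and RNA-seq, as given above. Over the RNA-seq values of all 6 treated cultures against their controls, 1 of 44 differed by 2-fold, Pax6 after 30 min of KCl at -1.17 with 9 reads against 30, in a comparison in which 6.37% of 9031 genes were at least 2-fold lower.

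The microRNA cultures offered a further comparison, because 4 of the genes hold a match to the seed of miR-155 in their 3′ UTR, a feature of 11.8% of the 17001 mRNAs. The mature miR-155-5p (chr16:84714143-84714165, plus strand, GRCm38.p6) is shown with its seed, bases 2 to 8, in capitals, beside the 8-base matches of Dcx and Tbr1, in which the matched bases are in capitals.
mmu-miR-155-5p: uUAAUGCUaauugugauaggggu
Dcx: attatattgcAGCATTAAgtca
Tbr1: tttgataaggAGCATTAAtccc
The Dcx match lies at position 6440 of its 3′ UTR and that of Tbr1 at 1334, where a shorter match lies at 1280. Sox11 and Neurod2 hold 1 shorter match each. Dcx had 70.6 RNA-seq CPM with miR-155 and 96.0 with GFP, a log2 ratio of -0.44 (-0.94 to 0.08), and Sox11 was at -0.32 (-0.87 to 0.26). Of the 7 genes compared, 0 had an interval that excluded no difference, against 13.7% of 9077 genes. Tbr1 had 19 and 3 RNA-seq reads, too few for that comparison, but 42 tags with miR-155 and 37 with GFP, a log2 ratio of -0.12 (-0.79 to 0.56). By tags Dcx was at -0.18 (-0.90 to 0.55), Sox11 at -0.05 and Neurod2 at -0.25, and 0 of 8 genes had an interval that excluded no difference, against 11.7% of 5351 genes. By tags 1 of 8 was at least 2-fold higher with miR-155, against 1.68% of genes. That was Neurod1, which holds no match, at 54.2 tag CPM with miR-155 and 25.7 with GFP. No change beyond counting error was detected in these genes with miR-155, and the RNA-seq interval of Dcx allows a decrease of up to 0.94 on the log2 scale. With miR-1, 0 of 7 genes had an RNA-seq interval that excluded no difference, against 15.4% of 7472 genes. By tags 2 of 7 did, against 13.3% of 5203 genes. Sox2 alone was at least 2-fold lower by tags with miR-1, against 2.81% of genes. It had 44.8 tag CPM with miR-1 and 110.4 with GFP, and 41.3 and 55.8 RNA-seq CPM. The tag value with miR-1 rests on 20 tags, the fewest of Sox2 in any tail library. The RNA-seq value with GFP rests on 25 reads.

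The visual cortex gave the only replicated comparison, of 4 mice in the dark with 4 mice given light for 1 h. Of the 9 genes tested, Dcx was the least and Tbr1 the most abundant in tags. Dcx had 8.81, 8.86, 12.4 and 7.93 tag CPM (scaled with TMM factors) in the dark mice and 12.3, 13.5, 15 and 10.2 in the light mice, from 10 to 43 tags a library. Most light mice were above most dark mice, but the groups overlapped, and the log2 fold change of 0.44 ± 0.29 (SE, n = 4 and 4) had an adjusted p of 0.703 by edgeR's quasi-likelihood test. Tbr1 had 353.0, 522.3, 409.8 and 466.2 in the dark and 426.7, 348.4, 398.4 and 467.8 in the light, and these ranges lay on top of each other. Its log2 fold change was -0.10 ± 0.11 with an adjusted p of 0.860 in edgeR.

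Neurod1 and Sox2 came closest to a difference. Neurod1 had 53.5, 58.1, 51.3 and 66.6 tag CPM in the dark and 48.3, 63.8, 35.1 and 33.6 in the light. The light mice were lower on average, with 1 of them above 3 of the dark mice, and the log2 fold change was -0.36 ± 0.18 with an adjusted p of 0.555 in edgeR. Sox2 had 102.3, 81.6, 83.2 and 101.5 in the dark and 109.7, 121.1, 91.5 and 109.2 in the light, a log2 fold change of 0.24 ± 0.12 with an adjusted p of 0.571 in edgeR. For the other genes the log2 fold change was 0.43 for Pax6, 0.14 for Sox11, -0.04 for Bcl11b, -0.09 for Neurod6 and -0.25 for Neurod2, with adjusted p-values of 0.618 to 0.973 in edgeR. The groups overlapped for all 9 genes. The edgeR test called 0 of them at an adjusted p under 0.05, and 0 had an unadjusted p under 0.05, and DESeq2 gave 0 and 0. With 1 mouse left out, 4 of the 9 had an unadjusted p under 0.05 in at least 1 fit, the lowest being Neurod1 without light mouse 2, at -0.57 with an unadjusted p of 0.0036 and an adjusted p of 0.191 in edgeR. The background was 1.34% of 9554 genes called, 116 higher and 12 lower in the light.

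Mean tails could be tested for 6 of the genes, with at least 50 tags in each mouse. Tbr1 tails were 99.7, 95.4, 83.8 and 84.6 nt in the dark and 88.7, 110.9, 114.6 and 87.3 nt in the light. The groups overlapped, and the mean difference of 9.51 nt (SE 6.68, n = 4 and 4) had an adjusted p of 0.999 by limma. Neurod1 tails were 76.2, 71.9, 52.4 and 76.7 nt in the dark and 46.5, 69.3, 73.9 and 74.3 nt in the light, with 1 mouse of each group well below the rest. The differences were 5.71 nt for Bcl11b, 3.02 nt for Sox2, 0.53 nt for Neurod6, -1.38 nt for Neurod2 and -3.34 nt for Neurod1. None of the 6 passed the test, and none had an unadjusted p under 0.05, against 0.231% of 4321 genes called, all 10 of them longer in the light. That count of 10 over all genes depended on single mice. It became 19 without dark mouse 1, 21 without light mouse 4, 2 without dark mouse 2 or light mouse 3, and 1 without dark mouse 3, dark mouse 4 or light mouse 2, and in none of these was one of the 6 genes called.

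**Figure D4:**
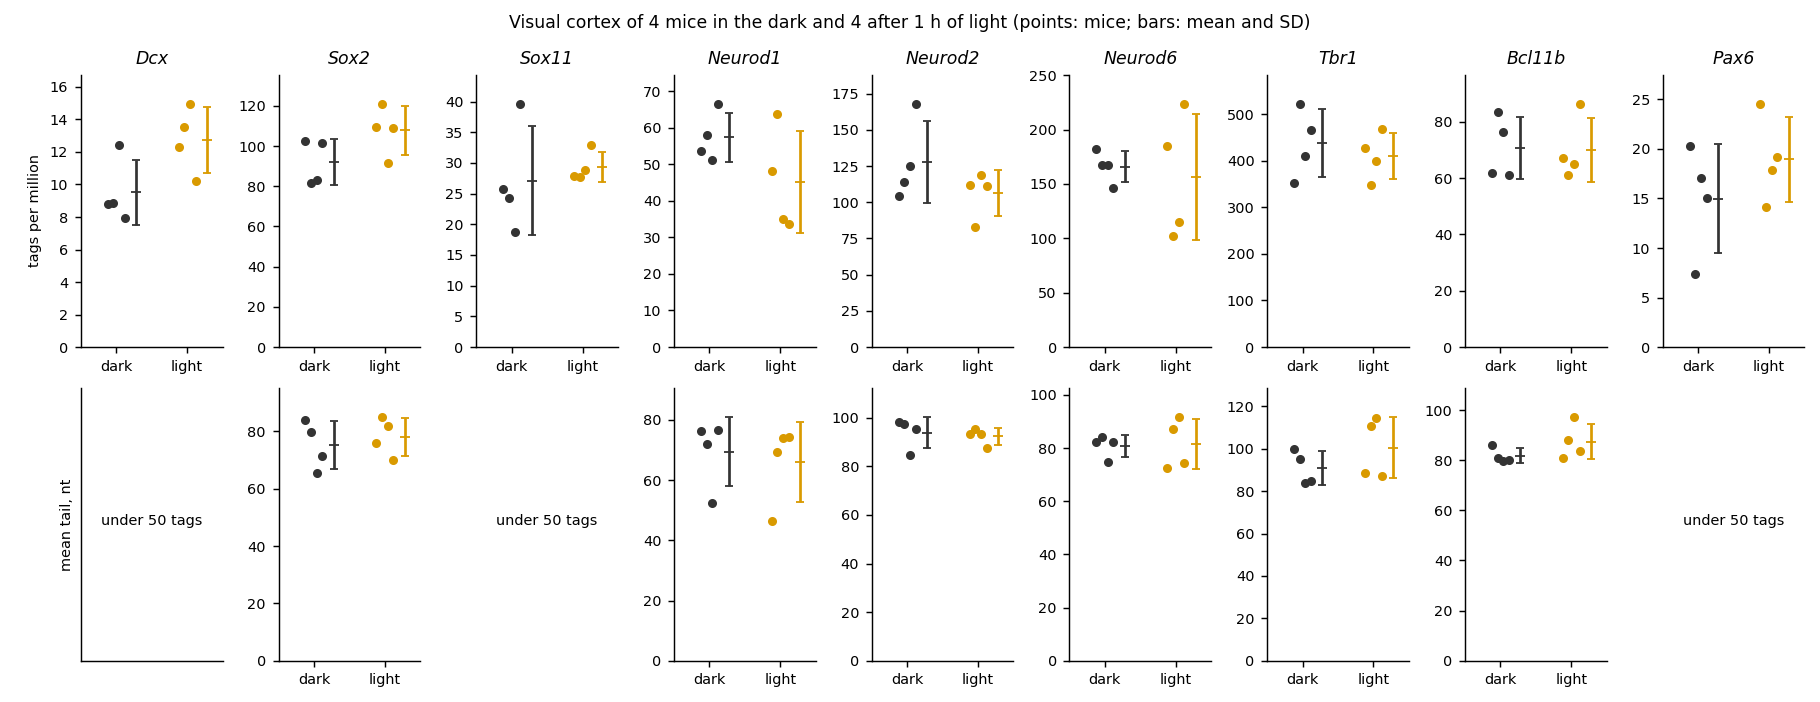
Tags in CPM, scaled with TMM factors (upper row), and mean tail in nt (lower row) of each gene in the visual cortex of 4 mice in the dark and 4 mice after 1 h of light. Points are mice and bars the mean with its SD; the 2 groups overlap in every panel, and genes with under 50 tags in a mouse have no tail panel.

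Sox4 was nearly absent from the tail libraries. It had 4 tags over all 20, none in 16 of them and 1 at most in the others, beside 4845 RNA-seq reads and 28655 RPFs. Of the 1125 genes with at least as many RNA-seq reads, 7 had as few tags, and both counts include Sox4 itself. Sox4 overlaps a noncoding gene, Gm46405, whose part in this was not tested.

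Across the 12 RNA-seq libraries, the genes most like Dcx by Pearson's r of log2 levels, out of 11827, were Dpysl3 (r = 0.975), Slco5a1 (0.974), Srsf1 (0.974), Bach1 (0.967) and Nasp (0.965). Sox4 was the closest of the other 9 genes, at r = 0.956 and rank 12, followed by Sox11 at 0.886 and Sox2 at 0.870. Pax6 was at 0.564, Neurod1 at 0.209 and Neurod6 at 0.187, and Neurod2, Tbr1 and Bcl11b were at -0.147, -0.160 and -0.359. These values are descriptions over libraries that share cultures and preparation, 9 of the 12 being cultures.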

How the data were processed

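The values analysed are the authors' deposited tables, 1 per library, keyed by RefSeq accession. For RNA-seq and ribosome profiling the authors mapped reads to mm10 with STAR (version 2.4.2 in the submitters' processing notes) and counted reads in the coding sequence of 1 transcript per gene without its first bases, and they deposited raw counts and RPM, whose denominator exceeds the reads on listed genes. Tail files hold deposited tag counts beside the tail length (nt) of every gene. For the hippocampi the authors also deposited log2 TE, used only as an alternative.

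The 10 genes and the gene lists were chosen with earlier results of these data known. The genes named from each list are the 2 highest and the 2 lowest embryonic to adult RNA ratios with at least 30 reads. Symbols, gene models and sequences came from RefSeq on GRCm38.p6, and 17010 of 17158 accessions matched a symbol. Single libraries were compared by counts with Clopper-Pearson intervals, for genes with at least 30 reads in both together. Light was tested with edgeR 4.0.16 (R 4.3.3; quasi-likelihood, TMM) on counts and limma 3.58.1 on tails, adjusted by Benjamini-Hochberg over all genes tested at a threshold of 0.05, with DESeq2 1.42.0 as an alternative. Both scripts were tested on simulated data. All 12 pairs of mice within a group differed by more than sampling noise (chi-square per degree of freedom 2.28 to 7.71). That the mice are separate animals comes from the study's methods. For 2 RPF libraries the labels did not settle which microRNA was expressed, and they entered no comparison.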

Additional observations from a re-analysis of the deposited data

Results flagged for a closer look

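Neurod6 RPFs went in opposite directions at the 2 times of KCl, each with a counting interval that excluded 0. They were 60.1 RPF CPM in the control, 51.9 at 10 min and 76.8 at 30 min, log2 ratios of -0.21 and 0.35. Both values share 1 control library and the difference between them was not tested. The 2 RPF libraries of microRNA cultures whose labels did not settle which microRNA was expressed also held RPFs of the 10 genes, 634 of 817114 in one and 4596 of 6428048 in the other, and entered no comparison. Over 30 sets of 4 mice, each 1 gene and 1 measure in 1 light condition, 0 had a highest or lowest mouse past Dixon's 95% critical value, the low Neurod1 tails of 52.4 nt in the dark and 46.5 nt in the light included.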

How the results depend on the processing

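With the authors' RPM, 0 of 10 genes were 2-fold different between DIV10 and DIV14 RPFs, and the log2 embryonic to adult RNA ratio of Bcl11b was 0.0026. With tags in place of RNA-seq reads, 5 of 7 genes were 2-fold different between the hippocampi, 0 of 9 between DIV10 and DIV14, and 3 of 50 values between treated and control cultures, of which 1 of 35 in stimulated and 2 of 15 in microRNA cultures. With RPFs, compared for stimulated cultures, it was 0 of 40. Over all genes, 15.3% of 2653 were at least 2-fold higher by tags in the embryo and 29.8% lower. Between DIV10 and DIV14 5.63% were higher and 4.72% lower by tags. Across the treated cultures 0.609% to 1.77% were higher by tags and 1.09% to 2.81% lower. The embryonic tail difference of Neurod6 was -16 nt minus the median difference. In the cortex, 192 genes were called for tag counts without a filter, and over the fits that each leave out 1 mouse 100 to 150. For tails, 1 gene was called on the log2 scale and 1 with tags as weights, where Neurod6 was at -2.59 nt, and leaving out 1 mouse gave 1 to 21. None of the 9 genes tested for tags or the 6 tested for tails was called in any of these fits.

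Leaving out 1 mouse changed the sign of small differences. On tags the log2 fold change ranged from -0.32 to 0.0758 for Neurod6, from -0.19 to 0.0138 for Tbr1 and from -0.16 to 0.0925 for Bcl11b. On tails the difference ranged from -0.25 to 5.97 nt for Sox2, from -8.97 to 3.16 nt for Neurod1, from -4.47 to 0.30 nt for Neurod2 and from -2.84 to 3.53 nt for Neurod6. Other values moved without a change of sign, from 0.10 to 0.65 for Pax6, 0.03 to 0.35 for Sox11, -0.57 to -0.23 for Neurod1 and -0.33 to -0.10 for Neurod2 on tags, and from 4.76 to 13.9 nt for Tbr1 and 2.49 to 7.86 nt for Bcl11b on tails. The lowest Pax6 value was without dark mouse 2, and the Sox11 values were without dark mouse 3 and dark mouse 4. Leaving out 1 mouse gave an unadjusted p under 0.05 in edgeR for Sox2 without dark mouse 1, dark mouse 4 or light mouse 3, for Neurod2 without dark mouse 1, for Neurod6 without light mouse 4 and for Neurod1 without light mouse 2, and in limma for Tbr1 tails without light mouse 4. Without the filter it did so for Neurod1. The adjusted p-values in these fits were 0.191 to 0.536. The causes were not tested.

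Mice of the 2 groups share numbers 1 to 4, but correlations of their deviations were 0.119, -0.162, -0.201 and -0.0763 for tags and -0.113, 0.0301, -0.0935 and 0.0405 for tails, so the numbers were not taken as pairs. Only number 1 for tags and number 2 for tails had its own number as best partner. With the replicate number as a block, 113 genes were called for tags and 1 for tails, and 0 of the genes described here. Over single genes 281 alternatives were classed as the same, 47 as moved and 15 as reversed. Between single libraries, the same meant a value within the counting interval of the main one. For light it meant the same sign and the same side of the adjusted p threshold, so size was not compared there. Depth limits the culture RNA values, since each of the 10 genes had under 50 RNA-seq reads in the unstimulated DIV14 culture, and the hippocampal tags, with 86841 in the embryonic and 221876 in the adult library.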
